A study of Mus musculus with 4 samples.

Results

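The genes described here encode proteins of the mitochondrial ribosome, measured in murine thymic CD8+ cells and in CD8+ T cells grown in vitro. Members were taken by name: every gene of the array design, controls aside, whose name begins with Mrpl or Mrps and a digit. This gave 75 of the 27962 genes on the array (46 named Mrpl, 29 named Mrps), measured by 125 probes. At least 1 probe was detected for each of the 75, and all 75 were well above background in both channels, so none was lost to the filter on dim probes. The thymic cells came from C57Bl/6 mice 4 to 5 weeks old. The cultured cells grew from sorted marrow progenitors (negative for lineage markers, positive for Sca1 and CD117) of B6 mice 6 to 8 weeks old. They were kept for 35 days on OP9-DL1 stroma, a marrow stromal line that presents the Notch ligand Delta-like 1, with Flt3 at 5 ng/ml and IL7 at 1 ng/ml. Both kinds were sorted as CD8+ cells with high T cell receptor beta, and neither was treated. The labels name 2 preps of each kind and do not say at which step these were separated. The 4 Agilent arrays paired each thymic prep with each in vitro prep once. On every array the thymic RNA was the Cy3 channel and the in vitro-derived RNA the Cy5 channel, so dye and cell origin cannot be told apart, and nor can donor age. Separate animals are not named for the preps, so a p-value here reflects only how far these preps spread, which may be technical.

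Mitochondrial ribosomes translate the few messenger RNAs of the mitochondrial genome, which encode core subunits of the respiratory chain and ATP synthase. All their proteins are encoded in the nucleus, made in the cytosol and imported. Some descend from bacterial ribosomal proteins and others were added in mitochondria, and the large (Mrpl) subunit forms peptide bonds while the small (Mrps) subunit decodes the message. In T cells the demand for mitochondrial translation is known to rise on activation and growth.

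The share of non-control spots well above background was 63.7% to 65.6% for Cy3 and 66.5% to 70.9% for Cy5. The smallest p an exact permutation of 2 preps against 2 allows is 0.333, so calls rest on limma's variance shared over the 18622 genes tested (adjusted p under 0.05, Benjamini-Hochberg over all of them). Values are log2 ratios of in vitro-derived over thymic signal after loess normalization within arrays, with standard errors of that fit (n = 2 preps of each kind). In the same comparison all 12 proliferation markers were higher in in vitro-derived cells (median 2.19, summed linear signal 58000 to 59900 in thymic and 196000 to 233000 in in vitro preps). Stromal markers were higher in 10 of 11 tested of 13 listed (median 1.49, sums 1380 to 1460 against 8450 to 10500), with Dcn and Lum not detected. With the background correction fitted on all spots 6 of the 11 were called higher. Of the 8 CD8 T cell markers 1 rose and 5 fell, and with median centring 6 rose. Their sums were 288000 to 289000 in thymic and 230000 to 252000 in in vitro preps. Myeloid markers rose in 3 and fell in 1 of 4 tested, but none was called without thymic prep 2. B cell markers fell in 1 of 5, and none of 3 thymic epithelium markers was called. What part these shifts have in the values below was not tested. In these bulk samples fewer cells of a type and less RNA per cell cannot be told apart.

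Relative to other genes of the same brightness, which loess sets to a ratio of about 0, most mitochondrial ribosomal protein genes differed little, apart from Mrps6. With each array centred on its median instead, 72 of 75 were called higher, as described further on. After loess 33 of the 75 passed the test, against 51.6% of all genes tested. Of these 17 were higher in in vitro-derived cells (26.6% of all genes were) and 16 were lower (25% of all genes were). Leaving out either thymic prep ended most of these calls, and the spread then rests on the 2 in vitro preps alone. The share of all genes called in those fits is not given here. The loss therefore cannot be read as particular to the members. The median member lay at 0.05, beside 0.03 for all genes. The interquartile range of the members was 0.29, against 0.48 over all genes. Only Mrps6 was called and changed at least 2-fold, whereas 10.1% of all genes were, and 59 of 75 members (78.7%) lay within 0.32 of 0 on the log2 scale, against 59.2% of all genes. The member median was 0.04, 0.11, 0.00 and 0.06 on arrays 1 to 4, and 43, 48, 38 and 46 of the 75 were above 0. Members also varied little between preps: the median absolute difference was 0.05 between the in vitro preps (0.09 over all genes) and 0.04 between the thymic preps (0.05 over all genes).

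**Figure D1:**
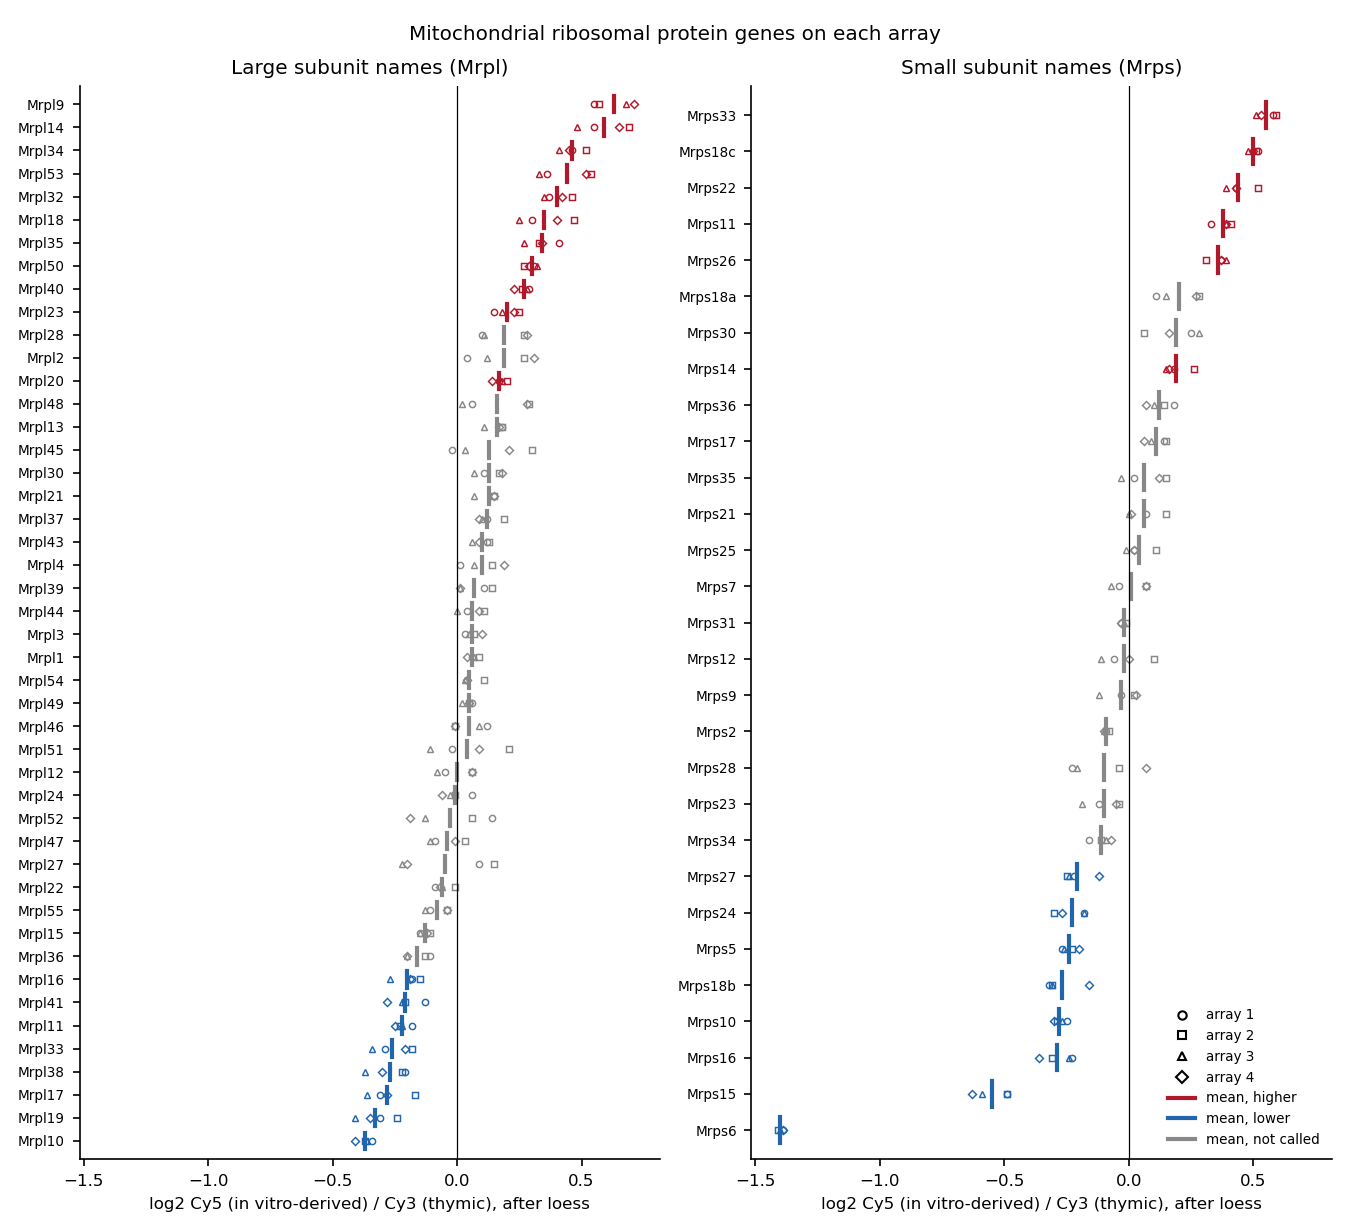
Log2 ratio of Cy5 (in vitro-derived) over Cy3 (thymic) after loess for each of the 75 genes, with open symbols for the 4 arrays and a bar for their mean, coloured by the call. Most genes lie between -0.5 and 0.5 with the arrays close together, and Mrps6 stands apart near -1.4 on all 4 arrays.

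Direction depended on the normalization more than on any other choice, and this bears on every value that follows. Loess sets the ratio to about 0 at each brightness, whereas centring each array on its median removes 1 constant. With median centring the median of all genes was 0.34, 58.7% of all genes were called higher and 12% lower. Under it 72 of the 75 members were called higher, 1 lower (Mrps6) and 2 were not called (Mrps15 and Mrps18b), with a member median of 0.74. Of the 16 members called lower after loess 13 were called higher with median centring. Before any normalization between the dyes the ratio of the 74 members other than Mrps6 was at least 0.66, 0.62, 0.58 and 0.60 on arrays 1 to 4.

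The members are bright, and this is where the 2 normalizations differ. When all genes tested were split by mean intensity into low, middle and high groups of equal size, 66 members fell in the high group, 9 in the middle and 0 in the low. Over all genes the median with centring was 0.02 in the low group, 0.43 in the middle and 0.71 in the high, while loess gave 0.03, 0.03 and 0.00. The 66 bright members had a median of 0.77 with centring and 0.06 with loess, and the 9 in the middle group 0.45 and -0.04. After loess 43.9% of the 66 bright members were called, against 64% of all genes in the high group. In the middle group 44.4% of the 9 members were called, against 57.9% of all genes. Across genes, the rank correlation of difference with intensity was 0.54 with centring and -0.03 with loess for all 18622 genes, and 0.59 and 0.18 for the 75 members. These correlations describe genes that share the same 4 arrays and are not replicates. The medians of the members lay within 0.1 of those of all genes in the same group, and whether bright genes as a whole were higher in in vitro-derived cells or brighter in Cy5 cannot be told apart.

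**Figure D2:**
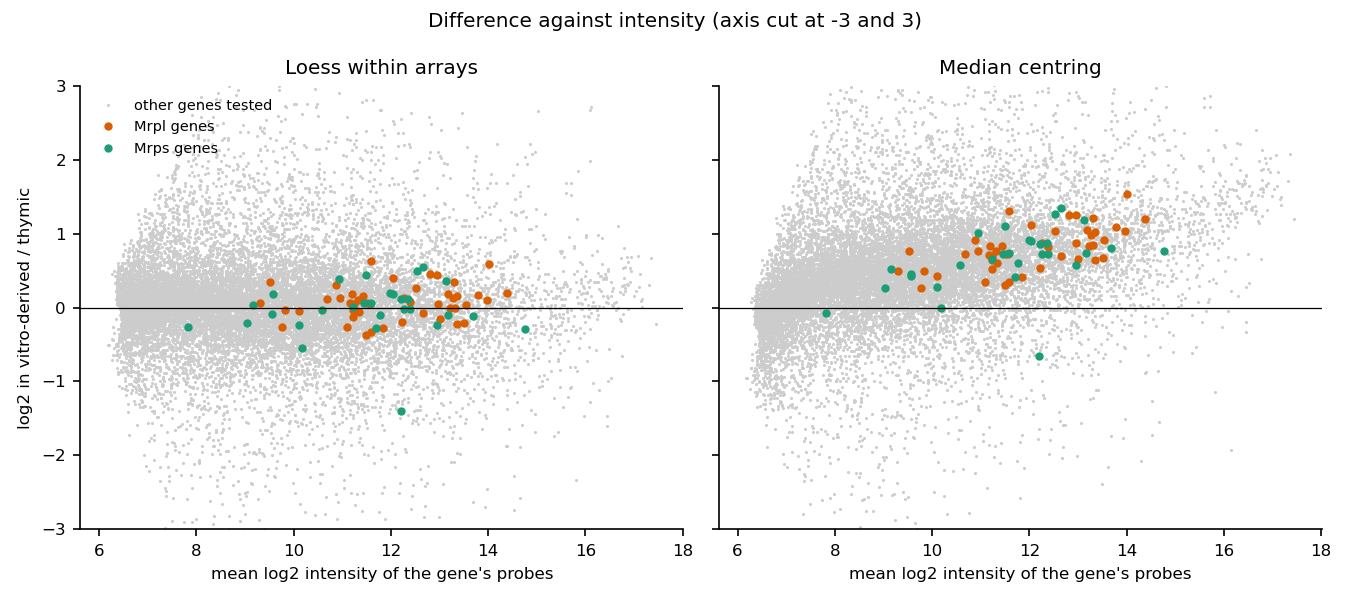
Log2 in vitro-derived over thymic against the mean log2 intensity of a gene's probes, after loess (left) and with median centring (right); grey points are other genes tested and coloured points the Mrpl and Mrps genes. With loess the members lie about 0, and with centring they lie above 0 among other bright genes, with Mrps6 below 0 in both panels.

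Mrps6, a small subunit protein with a bacterial homologue, was the member furthest from 0. Its log2 level was 12.91 and 12.89 in the thymic preps and 11.52 and 11.48 in the in vitro preps. On arrays 1 to 4 the ratio was -1.39, -1.41, -1.40 and -1.39. The preps of 1 kind lay close together and the kinds far apart, with no overlap. The difference was -1.40 ± 0.05, or 2.64-fold lower in in vitro-derived cells (limma adjusted p = 6.7e-05), and it lay at percentile 2.26 of all genes. Both of its probes fell (-1.43 and -1.37). Over the 21 alternatives computed it stayed called lower, between -1.43 and -0.66, the last with median centring. The alternatives overlap and some changed no member call, so their number, here and below, is not a count of independent checks. Before normalization the ratio of Mrps6 was 0.15, 0.11, -0.03 and 0.02 on the 4 arrays, below every other member on each.

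The RefSeq annotation (GRCm38.p6) places Mrps6 at chr16:92058336-92112227. Its span overlaps that of Slc5a3, a myo-inositol transporter gene, over 29138 of its 53892 bases, and the array files do not say which transcript a probe detects. Slc5a3 was dim and also lower (-0.24 ± 0.05, adjusted p = 0.015), between -1.32 and -0.20 over 20 alternatives, with a call in 14 of them. Whether transcripts of Slc5a3 add to the signal of the Mrps6 probes was not tested. The 250 bases before the start of Mrps6 (RefSeq, chr16:92058086-92058335, plus strand) are shown because this member alone was called at 2-fold or more. They hold none of the 4 motifs searched further on.

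Mrps6: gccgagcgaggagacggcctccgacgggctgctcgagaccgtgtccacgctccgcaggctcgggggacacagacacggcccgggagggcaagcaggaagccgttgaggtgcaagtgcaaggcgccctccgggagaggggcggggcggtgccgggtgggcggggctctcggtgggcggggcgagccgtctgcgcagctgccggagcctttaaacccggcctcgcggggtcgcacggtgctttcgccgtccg

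The 6 largest rises were each between 1.36-fold and 1.55-fold. Mrpl9, a large subunit protein with a bacterial homologue, gave ratios of 0.55, 0.57, 0.68 and 0.71. Its mean was 0.63 ± 0.07 (adjusted p = 0.0013), and its levels were 11.37 and 11.17 in thymic against 11.92 and 11.87 in in vitro preps. The arrays with thymic prep 2 were the higher ones, and the 2 kinds did not overlap. Mrpl14, a large subunit protein of the intersubunit face, gave 0.55, 0.69, 0.48 and 0.65 (mean 0.59 ± 0.07, adjusted p = 0.0022). Here the arrays with in vitro prep 2 were the higher ones. Mrpl34, a small bacterial-type protein of the large subunit, gave 0.46, 0.52, 0.41 and 0.45 (mean 0.46 ± 0.06, adjusted p = 0.0022).

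On the small subunit, Mrps33, which has no bacterial counterpart, gave 0.58, 0.59, 0.51 and 0.53. Its mean was 0.55 ± 0.06 (adjusted p = 0.0011), and its 3 probes lay at 0.59, 0.52 and 0.54. Mrps18c, a paralogue of bacterial S18, gave 0.52, 0.51, 0.48 and 0.50 (mean 0.50 ± 0.05, adjusted p = 0.0013). Mrps22, a mitochondrial addition, gave 0.43, 0.52, 0.39 and 0.43 (mean 0.44 ± 0.06, adjusted p = 0.0028). All 6 of these rises were called in the same direction under all 21 alternatives, where they reached between 1.11 (Mrps22) and 1.54 (Mrpl14) with median centring.

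The other called rises were smaller. Mrpl53 lay at 0.44, Mrpl32 at 0.40, Mrps11 at 0.38, Mrps26 at 0.36, Mrpl18 at 0.35, Mrpl35 at 0.34 and Mrpl50 at 0.30. Mrpl40 (0.27), Mrpl23 (0.20), Mrps14 (0.19) and Mrpl20 (0.17) completed the 17. Each of these 11 lost its call under at least 1 alternative and none changed sign. The first 8 kept it in 19 or 20 of 21 alternatives, whereas Mrpl23 kept it in 12 and Mrps14 and Mrpl20 in 6 each.

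After Mrps6, the largest falls with loess were Mrps15, Mrpl10, Mrpl19, Mrps16 and Mrpl17. Mrps15, a small subunit protein with a bacterial homologue, gave -0.49, -0.49, -0.59 and -0.63. Its mean was -0.55 ± 0.07 (adjusted p = 0.0018), and its probes lay at -0.40 and -0.70. It was called lower under the 20 alternatives other than median centring, where it lay at 0.00. Mrpl10, which anchors the stalk that recruits translation factors, gave -0.34, -0.37, -0.36 and -0.41 (mean -0.37 ± 0.05, adjusted p = 0.0038).

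Mrpl19 gave -0.31, -0.24, -0.41 and -0.35 (mean -0.33 ± 0.07, adjusted p = 0.011). Mrps16 gave -0.23, -0.31, -0.24 and -0.36 (mean -0.29 ± 0.06, adjusted p = 0.014). Mrpl17 gave -0.31, -0.17, -0.36 and -0.28 (mean -0.28 ± 0.07, adjusted p = 0.02). All are proteins with bacterial homologues, and every array was below 0 for each. With median centring Mrpl10 was called higher at 0.30, Mrpl19 at 0.35, Mrps16 at 0.76 and Mrpl17 at 0.42, so these falls are relative to genes of the same brightness. Calls of all 4 were lost without thymic prep 1 (-0.38, -0.38, -0.30 and -0.32 in that order) and without thymic prep 2 (-0.36, -0.27, -0.27 and -0.24). Mrpl17 also lost its call without in vitro prep 1 (-0.23), and lay at -0.05 and was not called when its dim second probe was let in. The 10 other members called lower lay between -0.28 (Mrps10) and -0.20 (Mrpl16). For Mrpl33 only the dim probe was called (-0.41), and the bright probe lay at -0.10. For Mrpl38 only the dimmest probe was called (-0.63), and the others lay at -0.12 and -0.06. Mrps16, Mrpl41 (-0.21 to 0.67), Mrpl11 (-0.22 to 0.64) and Mrps24 (-0.23 to 0.58) moved furthest between the normalizations among the members whose call turned.

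**Figure D3:**
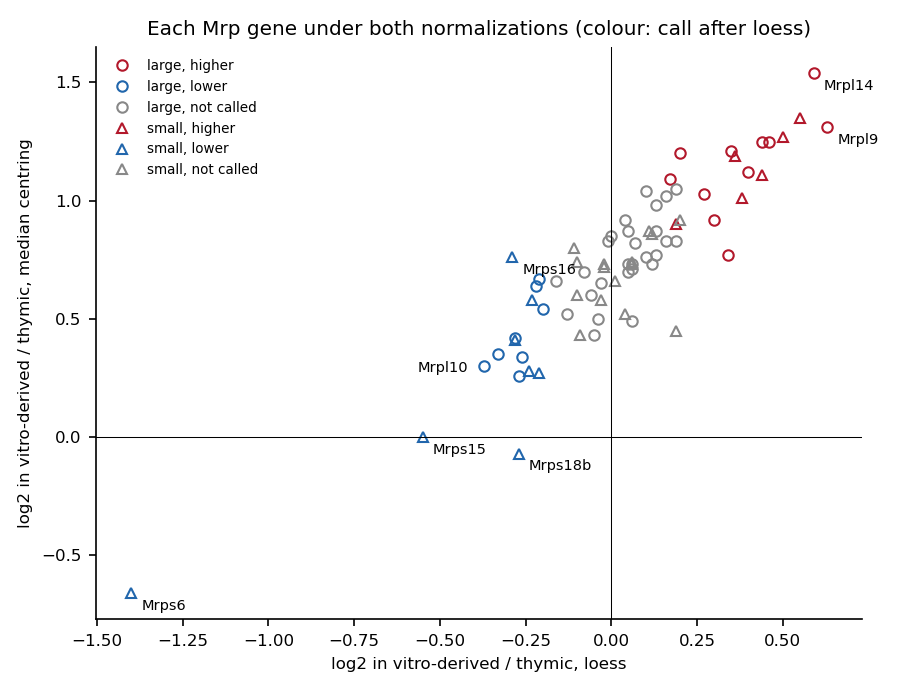
Difference of each of the 75 genes with median centring (vertical) against the same with loess (horizontal), both as log2 in vitro-derived over thymic; circles are Mrpl, triangles Mrps, and colours the call after loess. Nearly all points lie above 0 on the vertical axis, and Mrps6 is the gene at the lower left, with -1.40 and -0.66.

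Both subunits showed rises and falls. Of the Mrpl genes 41.3% were called and of the Mrps genes 48.3%, against 51.6% of all genes. Over all genes 26.6% were called higher and 25% lower (58.7% and 12% with centring). Among the 46 Mrpl genes 11 rose and 8 fell, with a median of 0.06 and a range from -0.37 to 0.63. Among the 29 Mrps genes 6 rose and 8 fell, with a median of -0.02 and a range from -1.40 to 0.55. With median centring all 46 Mrpl genes and 26 Mrps genes were called higher, with medians of 0.77 and 0.73. Mrps18a and Mrps30 sit on the large subunit of the mammalian mitoribosome in spite of their names, and Mrps36 is now assigned to the 2-oxoglutarate dehydrogenase complex. Sorted by place, 48 large subunit proteins had a median of 0.07 and 26 small subunit proteins -0.02. The difference between the subunits was not tested.

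By ancestry, the 46 proteins with bacterial homologues held 11 rises and 12 falls (median -0.01, or 0.73 with centring), and the 28 added in mitochondria held 6 rises and 4 falls (median 0.06, or 0.76 with centring). The 28 include Mrps18a and Mrps18b, although both are paralogues of bacterial S18, and Mrps18c is counted among the 46. Small subunit proteins with bacterial homologues held 3 rises and 6 falls of 16 (median -0.06). On the large subunit those with bacterial homologues held 8 rises and 6 falls of 30 (median 0.06), and the mitochondria-specific ones 3 rises and 2 falls of 18 (median 0.08). Of these 53.3% and 83.3% lay above 0, against 54.2% of all genes. On both subunits together, 50% of the genes with bacterial homologues were called and 35.7% of those added in mitochondria. Over all genes 51.6% were called (26.6% higher, 25% lower). The difference by ancestry was not tested.

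Several members with well-known places in the ribosome were not called. Mrpl12, the stalk protein that binds Mrpl10, gave -0.05, 0.06, -0.08 and 0.06 (mean 0.00 ± 0.07, adjusted p = 0.96, 95% confidence interval -0.17 to 0.16). The 2 stalk proteins therefore had different calls, and the difference between them was not tested. Mrps12, which lies at the decoding centre, had a mean of -0.02 ± 0.07 (interval -0.20 to 0.16). Its arrays ran from -0.11 to 0.10 and straddled 0.

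Mrpl44, a large subunit protein related to double-stranded RNA nucleases, lay at 0.06 ± 0.06 (interval -0.09 to 0.21). It was called higher where its brightest probe alone stood for the gene (0.18). In the limma fit over all probes that probe was not called (adjusted p = 0.052). Mrps30, also known as PDCD9, lay at 0.19 ± 0.07 (interval 0.00 to 0.38) and Mrps36 at 0.12 ± 0.06 (interval -0.02 to 0.27). Of the 2 Mrps36 probes 1 was called higher (0.23) and the other was not called (0.02). Mrps30 was called higher without in vitro prep 2 (0.27). With median centring these 5 genes were called higher, from 0.45 (Mrps30) to 0.86 (Mrps36).

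The 3 paralogues of bacterial S18 took different values. Mrps18a on the large subunit lay at 0.20 ± 0.07 and was not called (adjusted p = 0.061), but was called higher without in vitro prep 1 (0.27). Its span overlaps that of Rsph9 (2.38, called higher) over 6871 of 17905 bases, and whether Rsph9 transcripts add to its signal was not tested. Mrps18b fell, at -0.27 ± 0.06 (adjusted p = 0.018), and was the dimmest member, with a mean log2 intensity of 7.82. Mrps18c rose, as given above. On every array Mrps18c was the highest and Mrps18b the lowest of the 3, and with median centring Mrps18a lay at 0.92, Mrps18b at -0.07 and Mrps18c at 1.27.

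Probes of 1 gene mostly gave like values. Of the 75 members 44 had 1 detected probe and 31 had 2 or more. In 18 of those 31 at least 1 probe was called and the called probes pointed one way, and in 0 were probes called in both directions. Where only 1 probe was called, as in Mrpl27, Mrpl33, Mrpl38, Mrps9, Mrps17, Mrps25 and Mrps36, this holds by itself. In Mrpl27, Mrps9, Mrps17 and Mrps25 a probe that was not called had the opposite sign. The median range between probes of a gene was 0.14. The widest was 0.75 for Mrpl27, whose bright probe was called higher (0.33) and whose dim probe was not called (-0.42 ± 0.20). The 44 genes with a single probe, Mrpl9 and Mrpl14 among them, have no such check.

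Many of these genes start close to another gene on the opposite strand. Within 1000 bases, 25 members had such a neighbour in RefSeq, forming 24 pairs, and both genes were tested in 22, some under an older name. In 4 pairs both were called the same way, in 0 both were called in opposite ways, in 16 only 1 was called and in 2 neither was. The signs matched in 14 of 22 pairs, and pairs here share their 4 arrays. Of all genes tested 51.6% were called (26.6% higher, 25% lower) and 54.2% lay above 0. How often unrelated genes match in call or sign was not computed.

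Mrpl32, whose processing is needed to assemble the ribosome, and Psma2, a proteasome subunit gene, start 205 bases apart. Both lay at 0.40 (SE 0.06 and 0.08), with ratios of 0.37, 0.46, 0.35 and 0.42 for Mrpl32 and 0.45, 0.30, 0.53 and 0.33 for Psma2. Mrpl32 was highest on the arrays with in vitro prep 2 and Psma2 on those with in vitro prep 1, and both were called. Without thymic prep 1 Mrpl32 lost its call (0.39). Mrpl50 (0.30) and Zfp189 (0.28) rose, Mrps27 (-0.21) and the pentatricopeptide gene Ptcd2 (-0.32) fell, and so did Mrps5 (-0.24) and Zfp661 (-1.21). With median centring Mrps27, Ptcd2 and Mrps5 turned, to 0.27, 0.33 and 0.28, while Zfp661 stayed lower at -0.82.

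Other pairs parted. Mrpl30 lay at 0.13 and was not called, while Mitd1, an abscission gene that starts 66 bases from it, fell by 1.35 on the log2 scale (SE 0.05, adjusted p = 8.3e-05, or -0.72 with centring). Mrpl27 lay at -0.05 beside 0.76 for the nuclease gene Eme1, 48 bases away. Mrpl46, on the large subunit, lay at 0.05 ± 0.06 while Mrps11, on the small, rose at 0.38 ± 0.05, although their starts are 42 bases apart. Mrpl51 lay at 0.04 beside 1.61 (SE 0.09) for the condensin gene Ncapd2, 614 bases away, and Mrpl43 at 0.10 beside -0.43 (SE 0.05) for Twnk, the mitochondrial DNA helicase gene. Mrps18c (0.50) starts 159 bases from Helq, a repair helicase gene that was not called (-0.06). Mrps12 (-0.02) starts 147 bases from Sars2, the mitochondrial seryl-tRNA synthetase gene, which rose at 0.34. The difference within these pairs was not tested.

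**Figure D4:**
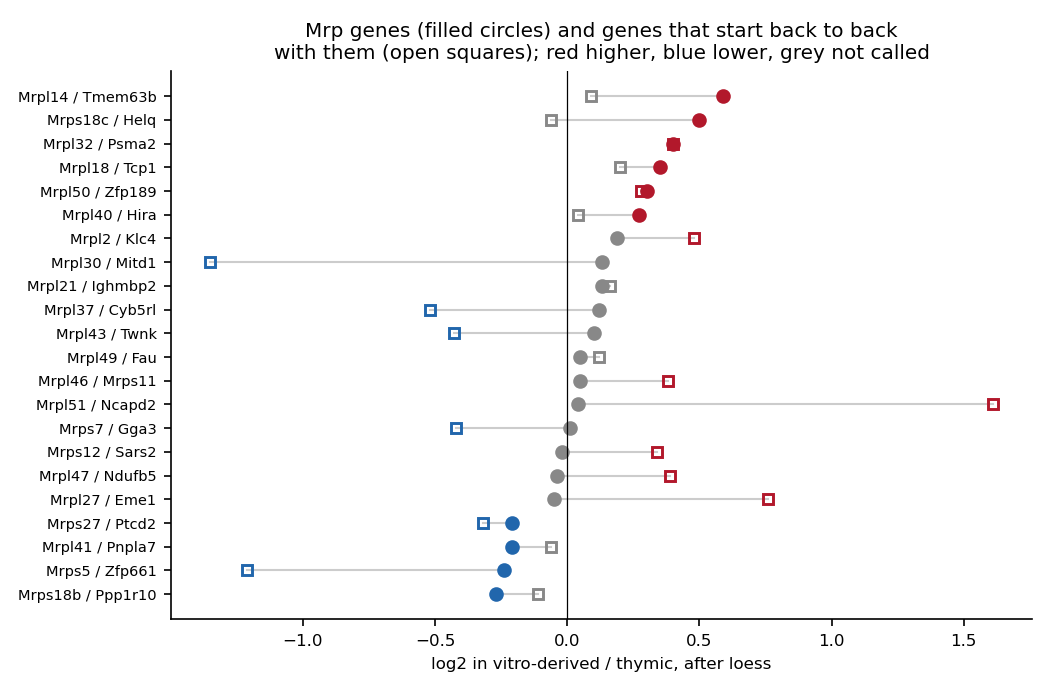
Log2 in vitro-derived over thymic after loess for the 22 pairs of a member (filled circle) and the gene that starts within 1000 bases on the other strand (open square), coloured by the call, with a line joining each pair. Mrpl32 and Psma2 lie together at 0.40, Mitd1 and Zfp661 lie far below their partners and Ncapd2 far above its own.

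Promoters were read for motifs of factors known to control nuclear genes for mitochondrial proteins. RefSeq (GRCm38.p6) gave 72 start sites for 66 of the 75 genes, and the 250 bases before each were searched on both strands. Genes were counted once, since neighbouring start sites share bases. The NRF1 motif (GCGC, any base, then TGCGC) stood before 9 genes (13.6%, against 4.23% of the 27025 genes with a stretch of this length). The motif CCGGAAG of ETS factors, to which GABP belongs, stood before 17 (25.8% against 7.83%). AAGATGGCG, bound by YY1, stood before 2 (3.03% against 0.71%) and the E-box CACGTG, bound by MYC and others, before 5 (7.58% against 6.86%). At least 1 of the 4, which did not overlap one another here, stood before 30 (45.5% against 17.4%). Median GC was 58.4% in the members' promoters and 52.4% in all promoters. At least 1 match stood before 10 of 17 members called higher, 3 of 14 called lower and 17 of 35 not called. A match describes letters only.

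The promoters below show where such matches lie in members that rose, with the matched letters in capitals and the rest in lower case. In that of Mrpl9 (chr3:94443086-94443335, plus strand) the NRF1 letters begin 28 bases before the start in the promoter table. That start lies inside the gene's full span (chr3:94443154-94448708), so most of the stretch does too. The stretch before Mrps22 (chr9:98601680-98601929, minus strand) has the ETS letters 11 bases before its start. The stretch before Mrpl32 (chr13:14613038-14613287, minus strand) covers the whole interval between it and Psma2, runs on into Psma2, and has the NRF1 letters 87 bases before the start. That before Mrps11 (chr7:78782881-78783130, plus strand) lies mostly within Mrpl46, whose span ends at 78783089. It holds the YY1 letters on the other strand, 108 bases before the start and within Mrpl46.

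Mrpl9: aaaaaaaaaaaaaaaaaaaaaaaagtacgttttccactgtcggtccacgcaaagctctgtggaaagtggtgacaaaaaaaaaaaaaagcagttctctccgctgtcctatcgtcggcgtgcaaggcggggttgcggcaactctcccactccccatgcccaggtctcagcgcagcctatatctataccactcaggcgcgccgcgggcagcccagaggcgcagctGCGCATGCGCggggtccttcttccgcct

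Mrps22: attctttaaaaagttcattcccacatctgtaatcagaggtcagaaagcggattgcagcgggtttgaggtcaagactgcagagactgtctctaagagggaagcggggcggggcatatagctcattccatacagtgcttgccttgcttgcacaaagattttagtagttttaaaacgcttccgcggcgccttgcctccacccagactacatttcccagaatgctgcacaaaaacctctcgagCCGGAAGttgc

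Mrpl32: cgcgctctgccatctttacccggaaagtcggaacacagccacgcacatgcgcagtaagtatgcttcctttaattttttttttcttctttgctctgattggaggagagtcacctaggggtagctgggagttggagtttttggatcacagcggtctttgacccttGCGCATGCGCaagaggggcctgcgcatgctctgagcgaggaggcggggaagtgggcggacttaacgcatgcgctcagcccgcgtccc

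Mrps11: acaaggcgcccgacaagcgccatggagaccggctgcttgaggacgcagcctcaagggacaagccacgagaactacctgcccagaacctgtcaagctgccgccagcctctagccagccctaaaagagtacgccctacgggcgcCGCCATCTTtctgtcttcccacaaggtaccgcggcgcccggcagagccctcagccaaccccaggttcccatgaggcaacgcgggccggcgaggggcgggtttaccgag

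Genes for the factors themselves were measured too. Nrf1, the nuclear respiratory factor gene, rose at 0.45 ± 0.07 (adjusted p = 0.0055) and Gabpa, the DNA-binding subunit of GABP, at 0.44 ± 0.06 (adjusted p = 0.0033). Yy1 (0.12), Gabpb1 (0.16), Myc (0.35 ± 0.17) and Ppargc1a (0.18) were not called. Pprc1, a coactivator of the PGC-1 family, fell by 1.49 (SE 0.10, adjusted p = 3.2e-04), and it remained lower with median centring (-0.84). Esrra (-0.50 ± 0.07, adjusted p = 0.0027) and Ppargc1b (-0.54 ± 0.09, adjusted p = 0.0062) also fell. With centring they lay at 0.09 and 0.00 and were not called. In all, 2 of these 9 regulators rose and 3 fell, with a median of 0.16. Over all genes 26.6% were called higher and 25% lower. With centring 6 rose and 1 fell (median 0.60), without thymic prep 1 there were 1 rise and 3 falls, and without thymic prep 2 there were 2 and 2.

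Mitoribosomal proteins without an Mrp name were also mixed. Dap3, a GTP-binding protein of the small subunit, rose at 0.57 ± 0.07. Ict1, a peptidyl-tRNA hydrolase built into the large subunit, rose at 0.53 ± 0.06, and Aurkaip1, on the small subunit, at 0.25 ± 0.05. Gadd45gip1, on the large subunit, fell by 0.45 (SE 0.06, or 0.02 with centring), and Chchd1 (0.06) and Mrp63 (0.06) were not called. Ptcd3 was listed but not tested. The 6 tested had a median of 0.15, and over all genes 26.6% were called higher and 25% lower. With centring 5 rose and 0 fell (median 1.12), and without either thymic prep 2 rose and 1 fell.

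Genes that build and serve the ribosome had lower medians than its proteins after loess. The counts below stand beside 26.6% of all genes called higher and 25% lower (58.7% and 12% with centring), and they changed with centring and without a thymic prep, as given after them. Among 16 tested genes of mitoribosome assembly and rRNA modification, of 20 listed, 2 rose and 11 fell, with a median of -0.32. Ddx28, a helicase for large subunit assembly, rose at 0.67 ± 0.07, and Mrm1, an rRNA methyltransferase, fell by 0.63 (SE 0.09). Of 10 tested translation factors 1 rose and 6 fell (median -0.23). Mrrf, the ribosome recycling factor, fell by 0.93 (SE 0.06, adjusted p = 2.2e-04, or -0.30 with centring), and the release factor gene Mtrf1 rose at 0.34 ± 0.06.

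Among 11 tested mitochondrial aminoacyl-tRNA synthetases 3 rose and 4 fell (median -0.14), with Fars2 at 0.62 ± 0.05 and Hars2 at -0.45 ± 0.06. Hars2 lay at 0.22 with centring and at 0.00 when probes were named through RefSeq. Of 7 genes of transcription and RNA processing 1 rose and 4 fell (median -0.30), with the transcription factor gene Tfb2m at 0.27 and Lrpprc, which stabilizes mitochondrial messenger RNAs, at -0.40 (0.10 with centring). Of 7 genes of mitochondrial DNA replication 1 rose and 5 fell (median -0.42), with the polymerase gene Polg at 0.23 and its accessory subunit Polg2 at -0.66. Of 18 import and chaperone genes 3 rose and 8 fell (median -0.18), with the outer membrane receptor Tomm20 at 0.61 and the carrier chaperone Timm10 at -1.17. None of the 13 listed mitochondrially encoded messenger RNAs was tested.

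With median centring the falls of these 6 lists were mostly lost or turned. It gave 9 rises and 0 falls for assembly (median 0.25), 6 and 2 for translation factors (0.43), and 6 and 0 for synthetases (0.22). Transcription held 5 rises and 0 falls (0.35), DNA replication 4 and 1 (0.35), and import 14 and 1 (0.57). Each of these medians was below the 0.74 of the Mrp genes with centring, and the differences were not tested. Median log2 intensity was 9.87 for assembly, 10.66 for translation factors, 9.14 for synthetases, 10.57 for transcription, 11.19 for DNA replication and 12.50 for import, beside 11.84 for the Mrp genes.

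Leaving out a thymic prep ended many of these calls, and the share of all genes called in those fits is not given here. Without thymic prep 1 there were 2 rises and 6 falls for assembly, 0 and 3 for translation factors, 1 and 1 for synthetases, 0 and 0 for transcription, 0 and 2 for DNA replication and 1 and 5 for import. Without thymic prep 2 there were, in the same order of lists, 2 and 4, 0 and 2, 1 and 1, 0 and 1, 0 and 4, and 1 and 5. Each list's median kept its sign in both.

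**Figure D5:**
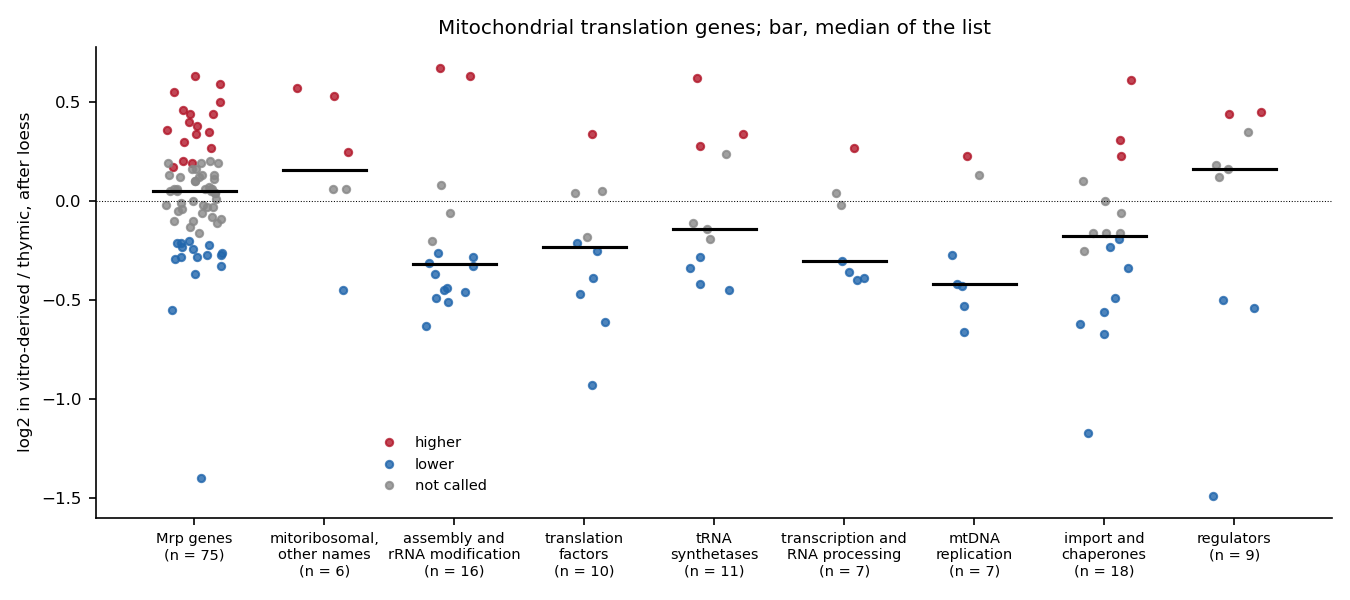
Log2 in vitro-derived over thymic after loess for the Mrp genes and 8 other lists of the pathway, 1 point per gene tested, coloured by the call, with a bar at each list's median. The Mrp genes centre on 0.05, while the assembly, translation factor, transcription and DNA replication lists centre between -0.42 and -0.23 (0.25 to 0.43 with median centring).

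Other large groups of ribosome and mitochondrial genes give a scale for these values. Of 68 tested cytosolic ribosomal protein genes 26 rose and 11 fell (median 0.14, or 1.26 with centring, at a median log2 intensity of 15.95). Of 81 tested genes of the respiratory chain and ATP synthase 29 rose and 10 fell (median 0.14, or 0.98 with centring, at 13.75). The members, at 11.84, had the lowest median of these 3 groups with either normalization, and the order of their medians with centring is the order of their brightness. The difference between the groups was not tested.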

How the data were processed

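The authors deposited 1 scanner file per array with spot intensity values of both channels (mean signal and local background, linear scale), and per the file headers the software was Agilent Feature Extraction 9.5.1.1. They also deposited a table of log10 ratios, which had a correlation of at least 0.9999 with the scanner's log ratio, also a log10 value deposited in the scanner files, and a median of 0 on each array. Total RNA (1 ug) was amplified and labelled per the labels' protocols. Here, limma 3.58.1 in R 4.3.3 corrected background by normexp (offset 50) after removal of marked spots (196 to 262 per array), and normalized each array by loess with control spots at weight 0. Probes were kept (27224 of 41174) where either channel was well above background on every array, and a gene's value is the mean of its detected probes. The 4 log ratios were turned into 2 thymic and 2 in vitro prep values, since each prep was used on 2 arrays, and tested with lmFit and eBayes (2 residual and 3.05 prior degrees of freedom, two-sided, Benjamini-Hochberg). Prep levels are channel values after loess and Aquantile. The fit was also run on simulated data with few changed genes and no dye or brightness trend, so that run says nothing about such trends. The members, lists and settings were chosen with earlier results of these data known. Gene names are those of the array design. Coordinates and promoters come from RefSeq GRCm38.p6. Probe names of 73 of the 75 members were matched to it, and promoters were found for 66. For the array design, no build is given in the sources used here. Named members are the 6 largest called rises and falls, members turned by centring and members chosen for their role. Named genes of other lists are the largest called rise and fall in each. Others (remaining called members, overlapping or neighbouring genes, further regulators) were named after their values were seen. Alternatives covered background, normalization, spot marks, dim probes, probe choice, names, the fit, the deposited ratios and leaving out each prep and array. They are not independent of one another. Aquantile, the filter on both channels and updated names changed no call of the 75 members. The deposited ratios nearly repeat those of the scanner, and taking the 4 arrays as independent ignores that they share preps.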

Additional observations from a re-analysis of the deposited data

Results flagged for a closer look

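In 3 of the 75 members 1 array stood apart from the other 3 by Dixon's test, which flags about 1 in 20 groups of 4 by chance. Mrpl21 lay at 0.07 on array 3, against 0.15 on each of the others. Mrpl54 lay at 0.11 on array 2, against 0.03 to 0.04. Mrps18b, the dimmest member, lay at -0.16 on array 4, against -0.32 to -0.31. The gaps are small on the log2 scale, and 3 different arrays are involved. Neither Mrpl21 nor Mrpl54 was called.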

How the results depend on the processing

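Reversed here means that the sign changed and that the gene was called with loess, with the alternative or with both. Of the members listed next as reversed 13 were called after loess, and the others were not. Median centring was the alternative that moved most. It gave 73 members called (72 higher, 1 lower) and medians of 0.74 for the members, 0.77 for the large and 0.73 for the small subunit. It reversed Mrpl10 (0.30), Mrpl11 (0.64), Mrpl12 (0.85), Mrpl15 (0.52), Mrpl16 (0.54), Mrpl17 (0.42), Mrpl19 (0.35), Mrpl22 (0.60), Mrpl24 (0.83), Mrpl27 (0.43), Mrpl33 (0.34), Mrpl36 (0.66), Mrpl38 (0.26), Mrpl41 (0.67), Mrpl47 (0.50), Mrpl52 (0.65), Mrpl55 (0.70), Mrps10 (0.41), Mrps12 (0.73), Mrps16 (0.76), Mrps2 (0.43), Mrps23 (0.60), Mrps24 (0.58), Mrps27 (0.27), Mrps28 (0.74), Mrps31 (0.72), Mrps34 (0.80), Mrps5 (0.28), Mrps9 (0.58), Hars2 (0.22), Lrpprc (0.10) and Gadd45gip1 (0.02). The brightest probe gave a large subunit median of 0.11 and turned Mrpl27 to 0.33. Updated names moved Hars2 to 0.00 and added Mrpl42 (-0.19), Mrpl57 (0.06) and Mrpl58 (0.53). The last 2 are the genes given above as Mrp63 and Ict1. Fitting normexp on all spots gave 10 falls, as did keeping marked spots, and treating the 4 arrays as independent gave 29 rises. Leaving out 1 prep or array gave 8 to 31 calls (6 to 20 rises, 2 to 14 falls) and a small subunit median of -0.06 to 0.05. The lowest counts came without thymic prep 1 (8 calls) or 2 (9 calls), where the spread rests on the in vitro preps alone. With the prep number as a replicate block 29 members were called. The labels do not say that numbers pair preps, and deviations of same-numbered preps correlated at 0.12. Across the 20 alternatives other than centring 8 members kept their call and direction: Mrps6 and Mrps15 lower, and Mrpl9, Mrpl14, Mrpl34, Mrps18c, Mrps22 and Mrps33 higher. With only 2 preps of each kind small differences are measured imprecisely, and the dyes were not swapped.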
